A study of Mus musculus with 22 samples.

Results

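Cells attach a single sugar, N-acetylglucosamine, to serine and threonine residues of nuclear and cytoplasmic proteins, and 9 genes that run this modification or supply its sugar donor are described here in neurons that received different forms of the transcription factor CREB. The genes were chosen by symbol: Ogt and Mgea5, which add and remove the sugar, and Gfpt1, Gfpt2, Gnpnat1, Pgm3, Uap1, Amdhd2 and Nagk, which make or recycle the donor UDP-GlcNAc. Each symbol had 1 entry among the 24490 gene entries of each library, every member had a valid estimate in all 22 libraries, and all 9 were among the 12080 genes tested.

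RNA was sequenced from C57BL/6 mouse cortical neurons taken from E16.5 embryos, cultured for 7 days and labelled Creb1-/-, so every group, controls included, carried the deletion. A herpes simplex virus (HSV) delivered either GFP, the control, or unaltered CREB (WT), CREB that cannot be glycosylated at S40 (S40A), CREB that cannot be phosphorylated at S133 (S133A), or CREB with both changes (S40A-S133A). The virus acted for 4 h or 8 h, after which all neurons were depolarized with 55 mM KCl for 2 h. All were silenced beforehand with 1 µM tetrodotoxin, which blocks sodium channels, and 100 µM D-AP5, which blocks NMDA receptors. At 4 h there were 2 libraries each of GFP, WT and S40A. At 8 h there were 4 libraries each of GFP, WT and S40A and 2 each of S133A and S40A-S133A. The design holds no undepolarized and no uninfected neurons. Nothing in the labels states whether replicates came from different cultures, and the p-values therefore reflect the spread among libraries alone, which may be technical.

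Ogt encodes the O-GlcNAc transferase and Mgea5 the O-GlcNAcase, and between them these enzymes set how much of the modification a protein carries. The donor is made by the hexosamine pathway. Gfpt1 and Gfpt2 encode the enzymes of its first committed step, which joins glutamine's nitrogen to fructose 6-phosphate. Gnpnat1 then acetylates the product, Pgm3 moves its phosphate, and Uap1 couples the sugar to UDP. Nagk phosphorylates N-acetylglucosamine salvaged from degraded sugars, and Amdhd2 removes the acetyl group and so runs the pathway backwards. CREB itself is a substrate of the transferase, and the S40A form lacks 1 of its sites.

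Levels are the deposited FPKM values (fragments per length of transcript and per library size) after median-of-ratios scaling between libraries, called scaled FPKM below. Differences are of log2(scaled FPKM + 1), a scale that understates the change of low genes. Genes are called where limma's adjusted p, by Benjamini-Hochberg over the 12080 genes, lay below 0.05; unadjusted p-values below come from the same limma fits. Read totals were not used, so depth is known only through the intervals that the authors' tool deposited with each value. Their half-width was 2.03% to 3.48% of the value for Mgea5 and 3.91% to 4.9% for Ogt, but 17.79% to 36.44% for Gnpnat1, the lowest member. In replicate 1 of the 4 h groups some intervals were not centred on the value, which a half-width does not show.

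Several facts of the whole series touch the results. Creb1, the deleted and virally supplied gene, lay at 9.56 to 15.7 scaled FPKM in the 6 GFP libraries, at 234 to 268 in the 4 h CREB libraries and at 567 to 2306 in the 8 h CREB libraries, so all libraries fell on the side their labels give; which part of the gene was deleted is not given in the labels. Library numbers in the deposited names place replicate 1 of the 4 h groups in a batch called run A here and replicate 2 in run B. The same numbers divide the 8 h libraries into an earlier set of GFP, WT and S40A, whose replicates 1 and 2 are called runs C1 and C2, and a later set of all 5 viruses, with runs D1 and D2. What these batches were is not stated in the labels. C1 and C2 rest on the replicate number alone, which the library numbers do not group, and deviations from the group means correlated at -0.042 to 0.177 within them. Differences given for C1 and C2 therefore pair libraries by number only. GFP at 8 h, replicate 2, stood apart, with a highest correlation to any other library of 0.923 against 0.977 or more for the rest. It held the lowest of the 22 values for 4 of the 9 members (Ogt, Mgea5, Gfpt1 and Pgm3), against 12.5% of all genes tested. Markers of neurons were plentiful (5 of 5 past the minimum, summed level 614 to 912 scaled FPKM). Of 6 microglial markers, Cx3cr1, P2ry12, Csf1r and Aif1 stayed below the minimum while Tyrobp and Cd68 passed it, with a sum of 3.20 to 22.1, and the astrocyte and oligodendrocyte marker sums reached 59.6 and 106. In such bulk samples fewer cells of a type and less RNA per cell cannot be told apart.

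CREB binds the sequence TGACGTCA and its half-site CGTCA, so the promoters of the members were searched for both on either strand, in windows from 250 bases before to 50 after the start site (RefSeq, GRCm38.p6). The table held 8 of the 9 members, with Mgea5 under its newer symbol Oga and 2 start sites for Ogt; Gnpnat1 was not matched. TGACGTCA was in none of the members' windows, against 1.79% of all 32851 promoter windows. CGTCA, which every TGACGTCA also contains, was in 1 member, Uap1, against 20.8% of all windows, and Uap1 held 2 matches, where 5.01% of all windows held at least 2. One Uap1 match begins 61 bases upstream of the start site and the other 1 base past it. A match is only a run of letters, and its absence says only that these letters are not in this window. The 250 bases upstream of the start site are shown for Uap1, the member with the half-site, and for Ogt (first start site) and Gfpt2, 2 of the members that differed between batches. They lie at chr1:170174965-170175214 on the minus strand, chrX:101639801-101640050 on the plus strand and chr11:49793905-49794154 on the plus strand, and capitals mark the half-site, here read on the opposite strand.
Uap1: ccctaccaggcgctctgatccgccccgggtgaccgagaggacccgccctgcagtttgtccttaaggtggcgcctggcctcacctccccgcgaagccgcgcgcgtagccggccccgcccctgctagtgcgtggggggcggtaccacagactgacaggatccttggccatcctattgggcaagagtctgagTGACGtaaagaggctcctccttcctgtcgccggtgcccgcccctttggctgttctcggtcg
Ogt: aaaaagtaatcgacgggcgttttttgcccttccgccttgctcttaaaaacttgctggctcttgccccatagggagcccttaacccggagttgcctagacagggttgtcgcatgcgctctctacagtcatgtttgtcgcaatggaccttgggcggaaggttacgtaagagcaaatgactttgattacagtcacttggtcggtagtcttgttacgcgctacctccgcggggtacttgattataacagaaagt
Gfpt2: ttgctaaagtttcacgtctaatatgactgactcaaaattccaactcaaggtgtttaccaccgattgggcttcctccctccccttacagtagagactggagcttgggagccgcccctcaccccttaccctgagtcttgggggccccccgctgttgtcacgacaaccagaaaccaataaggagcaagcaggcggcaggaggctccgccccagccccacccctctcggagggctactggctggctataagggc

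Mgea5 (chromosome 19, 45750259 to 45783291, minus strand, mm10) was the most abundant member, at 68.8 ± 6.98 scaled FPKM (SD, n = 22). At 8 h the GFP libraries read 65.7, 55.6, 72.5 and 72.7 for replicates 1 to 4, WT read 64.4, 62.8, 71.8 and 76.5, and S40A read 61.1, 61.9, 70.8 and 72.5. S133A read 77.3 and 73.2, and S40A-S133A read 82.5 and 73.1. Within each of the first 3 groups, replicates 3 and 4, from the later set, lay above replicates 1 and 2, and these 3 groups overlapped. The S133A and S40A-S133A libraries, all from the later set, lay above every GFP library at 8 h. At 4 h run A gave 58.6 for GFP, 61.7 for WT and 61.1 for S40A, and run B gave 74.4, 72.5 and 71.4 in the same order.

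Ogt (chromosome X, 101640051 to 101684351, plus strand) followed at 35.9 ± 9.14 scaled FPKM (SD, n = 22). At 4 h it read 27.9, 30.9 and 31.6 in run A for GFP, WT and S40A, and 57.3, 55.1 and 55.1 in run B. At 8 h GFP read 36.5, 22.7, 31.4 and 31.9, WT 35.4, 41.1, 31.9 and 31.4, S40A 30.5, 28.3, 35.7 and 32.6, S133A 39.97 and 30.8, and S40A-S133A 40.5 and 31.9. The 3 libraries of run B were higher than every other library, whatever virus they carried, and the 8 h groups overlapped.

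**Figure D1:**
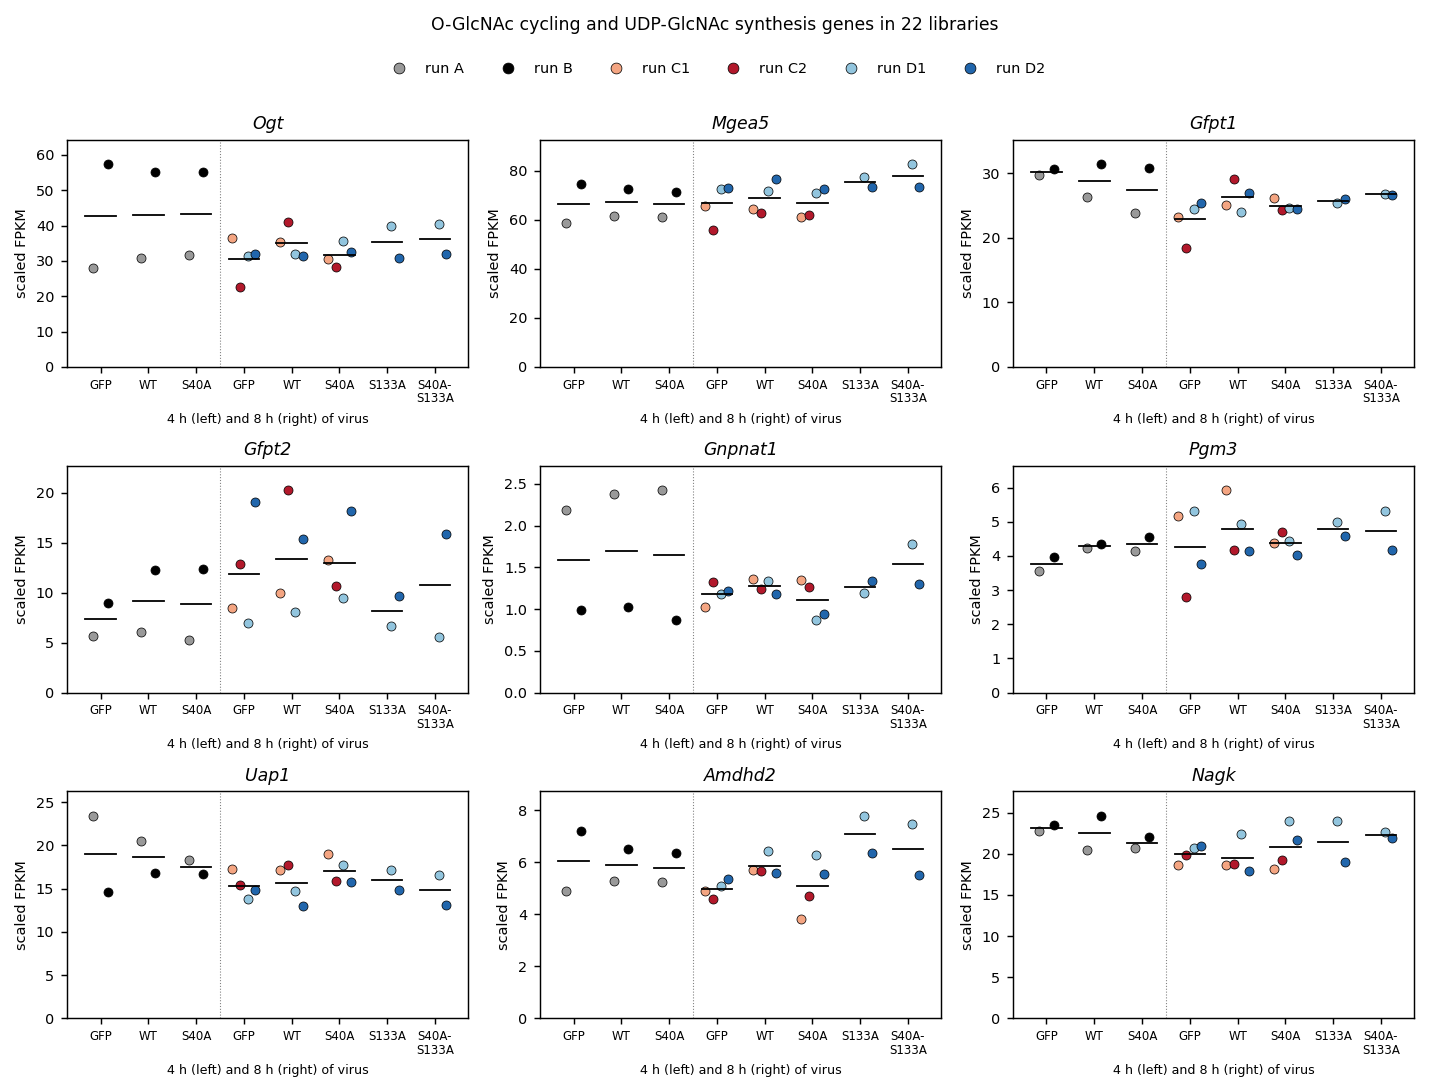
Scaled FPKM of the 9 members in each library by virus and hours, with points coloured by run and bars for the group mean. The groups overlap for most members, while the 3 run B libraries stand above the rest for Ogt, at 55.1 to 57.3.

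Gfpt1 (chromosome 6, 87042846 to 87092207, plus strand) was the higher of the paired first-step enzymes, at 26.1 ± 2.95 scaled FPKM (SD, n = 22). GFP at 8 h read 23.3, 18.5, 24.4 and 25.5, WT read 25.2, 29.1, 24 and 27.0, and S40A read 26.1, 24.3, 24.7 and 24.5. S133A read 25.4 and 26.1 and S40A-S133A 26.8 and 26.7. Replicate 2 of GFP was the lowest of all 22 libraries, and the other 3 GFP libraries lay within or near the range of the CREB libraries. At 4 h GFP read 29.7 and 30.7, WT 26.3 and 31.4, and S40A 23.9 and 30.8.

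Gfpt2 (chromosome 11, 49794155 to 49838620, plus strand), which encodes the second form of the same enzyme, was lower and the most variable member, at 10.96 ± 4.54 scaled FPKM (SD, n = 22) and with a highest library 3.83-fold the lowest. The 4 h libraries read 5.69, 6.06 and 5.29 in run A and 8.96, 12.2 and 12.4 in run B, for GFP, WT and S40A. At 8 h GFP read 8.51, 12.9, 6.92 and 19.1, WT 9.92, 20.3, 8.04 and 15.3, S40A 13.3, 10.7, 9.498 and 18.2, S133A 6.67 and 9.71, and S40A-S133A 5.54 and 15.9. In the later set the second library of each pair was the higher one for all 5 viruses. The groups overlapped over most of the range.

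Gnpnat1 (chromosome 14, 45376421 to 45388796, minus strand) was the lowest member, at 1.35 ± 0.447 scaled FPKM (SD, n = 22). Run A gave 2.19, 2.37 and 2.43 and run B gave 0.987, 1.03 and 0.869 for GFP, WT and S40A at 4 h, so the 3 run A libraries were the highest of all. At 8 h GFP lay at 1.03 to 1.32, WT at 1.18 to 1.36, S40A at 0.868 to 1.35, S133A at 1.19 and 1.34, and S40A-S133A at 1.78 and 1.30. Pgm3 (chromosome 9, 86552476 to 86571842, minus strand) stood at 4.44 ± 0.679, from 2.79 in GFP at 8 h, replicate 2, to 5.93 in WT at 8 h, replicate 1. Uap1 (chromosome 1, 170142003 to 170174946, minus strand) stood at 16.6 ± 2.43, from 13.0 in WT at 8 h, replicate 4, to 23.4 in GFP at 4 h, replicate 1.

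Amdhd2 (chromosome 17, 24155833 to 24163733, minus strand), the deacetylase, stood at 5.74 ± 0.982 scaled FPKM (SD, n = 22). At 8 h GFP read 4.91, 4.57, 5.09 and 5.35, WT 5.71, 5.68, 6.44 and 5.57, S40A 3.82, 4.72, 6.28 and 5.53, S133A 7.78 and 6.37, and S40A-S133A 7.48 and 5.50. The 4 WT libraries all lay above the 4 GFP libraries, whereas S40A spread across both. Nagk (chromosome 6, 83795057 to 83802556, plus strand), the salvage kinase, was the steadiest member at 21.01 ± 2.07, with a highest library 1.37-fold the lowest, the smallest such fold of the 9.

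FPKM is per length, so the members' levels may be set in order: Mgea5, Ogt, Gfpt1, Nagk, Uap1, Gfpt2, Amdhd2, Pgm3, Gnpnat1. The ranges of neighbours in this order overlapped except for Pgm3 above Gnpnat1. Within single libraries, however, Mgea5 was above Ogt in 22 of 22, Ogt above Gfpt1 in 21, Gfpt1 above Nagk in 21 and Uap1 above Gfpt2 in 17. Differences between run means held 85.6% of the variance of Mgea5, 79.9% of Gnpnat1, 76.3% of Ogt and 76% of Gfpt2, against 28.6%, 20.9%, 25.1% and 24.8% for group means. For Gfpt1 the shares were nearer, at 47.9% and 52.7%. Run and group overlap in part, since hours and the later viruses are tied to runs, and these shares carry no test.

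No member was called when the forms of CREB were compared with GFP at 8 h. When all 12 CREB libraries were set against the 4 GFP libraries, limma called 0 members, against 0.0248% of all genes tested, and 1 member had an unadjusted p under 0.05, against 5.12% of genes. That member was Gfpt1, with a difference of 0.17 ± 0.076 (SE; unadjusted p = 0.049, limma adjusted p = 0.832). Without replicate 2 of GFP its difference was 0.085 (unadjusted p = 0.146). In the later set alone it was 0.037. The members' differences ran from -0.06 for Gfpt2 to 0.19 for Amdhd2, with a median of 0.091 against 0.006 over all genes. No member's groups failed to overlap, and 0.116% of genes had groups that did not.

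WT CREB against GFP at 8 h gave 0 called members (0.00828% of genes were called) and 1 with an unadjusted limma p under 0.05 (1.07% of genes), again Gfpt1, at 0.20 ± 0.089 (SE; unadjusted p = 0.0476, adjusted p = 1). Without replicate 2 of GFP this was 0.098 (unadjusted p = 0.151). In the later set alone it was 0.028. In the 4 runs taken singly, Gfpt1 differed by 0.106, 0.626, -0.024 and 0.08 in C1, C2, D1 and D2, so the run with GFP replicate 2 gave the largest value. Amdhd2 was the 1 member whose WT and GFP libraries did not overlap (0.488% of genes), and it was higher with WT in all 4 pairs of equal replicate number, by 0.184, 0.261, 0.29 and 0.048. Its difference was 0.20 ± 0.110 (SE; unadjusted p = 0.102, adjusted p = 1).

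S40A CREB against GFP at 8 h also gave 0 called members in limma (0.00828% of genes) and 0 with an unadjusted p under 0.05 (5.9% of genes). The smallest p was that of Uap1, at 0.15 ± 0.095 (SE; unadjusted p = 0.152, adjusted p = 0.871). Uap1 was higher with S40A in 4 of 4 pairs of equal replicate number, by 0.041 to 0.342, but its groups overlapped. No member's libraries were fully apart in this comparison (3.16% of genes).

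S133A CREB against GFP gave 0 called members in limma (0.0248% of genes) and 1 with an unadjusted p under 0.05 (2.38% of genes), Amdhd2, at 0.33 ± 0.143 (SE; unadjusted p = 0.0377, adjusted p = 0.995). Both S133A libraries were above all 4 GFP libraries for Amdhd2 and Mgea5, 2 of the 9 members (7.87% of genes). Within runs Amdhd2 was higher by 0.529 in D1 and 0.214 in D2, and Mgea5 by 0.09 and 0.01. The S133A libraries come only from the later set, in which GFP also read higher for both. GFP there read 72.5 and 72.7 against 65.7 and 55.6 for Mgea5, and 5.09 and 5.35 against 4.91 and 4.57 for Amdhd2.

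S40A-S133A CREB against GFP gave 0 called members in limma (0.0166% of genes) and 1 with an unadjusted p under 0.05 (3.49% of genes), Gnpnat1, at 0.26 ± 0.119 (SE; unadjusted p = 0.0493, adjusted p = 0.975). Within runs Gnpnat1 was higher by 0.35 in D1 and 0.055 in D2. Both libraries lay above all 4 GFP libraries for 4 of the 9 members, Mgea5, Gfpt1, Amdhd2 and Nagk (9.21% of genes). The double-mutant libraries come only from the later set, in which all 4 of these members also read higher with GFP than in the earlier set (72.5 and 72.7 against 65.7 and 55.6 for Mgea5, 24.4 and 25.5 against 23.3 and 18.5 for Gfpt1, 5.09 and 5.35 against 4.91 and 4.57 for Amdhd2, and 20.7 and 21 against 18.6 and 19.8 for Nagk).

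**Figure D2:**
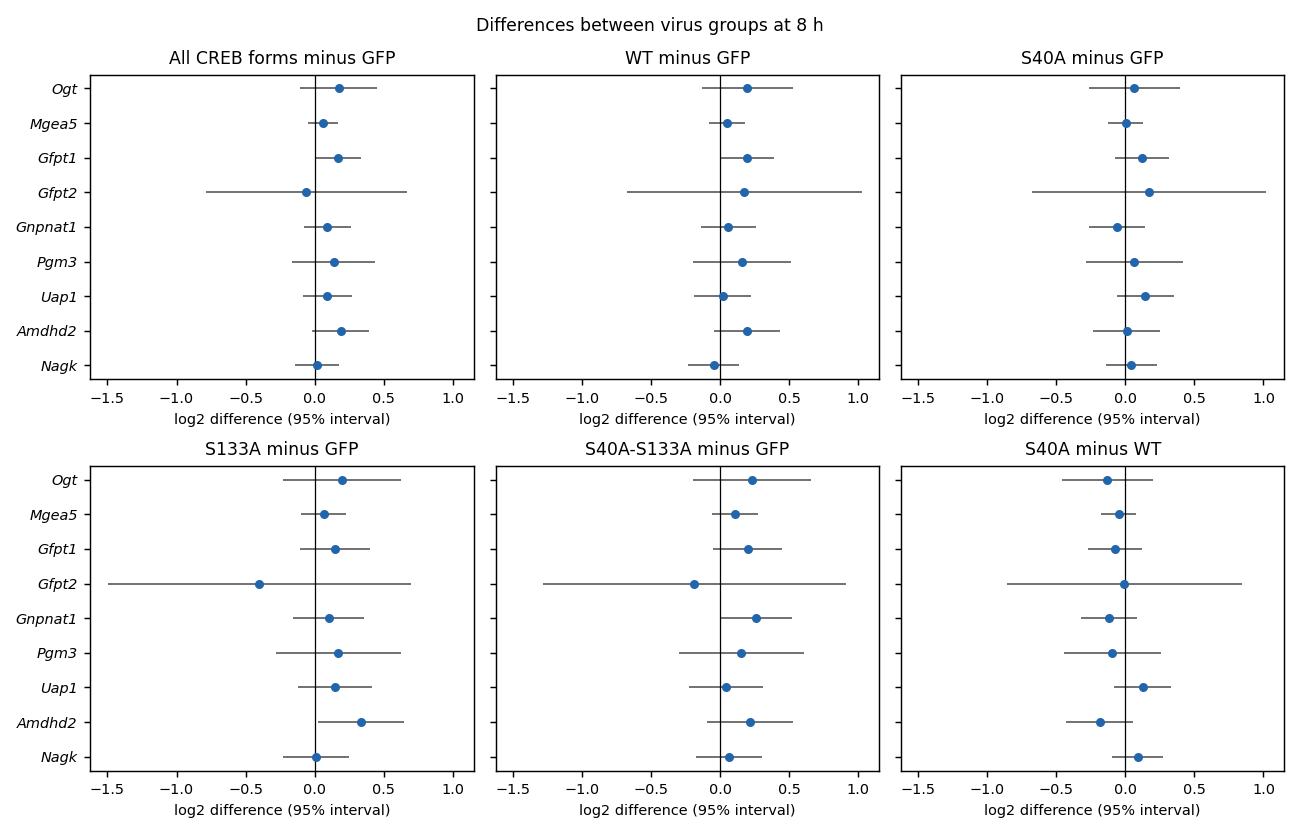
Fitted log2 differences at 8 h (points) with 95% confidence intervals (bars) for the 9 members, 1 panel for each of 6 comparisons: all CREB forms, WT, S40A, S133A and S40A-S133A minus GFP, and S40A minus WT. Most intervals span 0, no member passed adjustment over all genes, and Gfpt2 has the widest interval in every panel.

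Each of the 5 comparisons against GFP at 8 h had 8 of 9 members on the higher side, with medians of 0.091 for any CREB, 0.159 for WT, 0.064 for S40A, 0.147 for S133A and 0.154 for S40A-S133A, but these comparisons share the same 4 GFP libraries, and without further scaling between libraries the counts were 7, 7, 6, 7 and 7, with Nagk, Uap1, Mgea5 and Amdhd2, Nagk, and Uap1 changing sign. With scaling, the member on the lower side was Gfpt2 in the any CREB, S133A and S40A-S133A comparisons, Nagk in WT and Gnpnat1 in S40A. Of all genes tested 52%, 49.8%, 52.3%, 51.9% and 51.4% were on the higher side. Without replicate 2 of GFP the counts became 8, 6, 5, 8 and 8 and the medians 0.052, 0.052, 0.008, 0.082 and 0.081.

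The question of the glycosylation site is addressed by S40A against WT. At 8 h limma called 0 members (0% of genes, since no gene passed) and 0 had an unadjusted p under 0.05 (4.11% of genes). The smallest p was that of Amdhd2, at -0.19 ± 0.110 (SE; unadjusted p = 0.119, adjusted p = 1), with a 95% interval of -0.43 to 0.06. It was lower with S40A in 4 of 4 pairs of equal replicate number, as was Mgea5, whose pairs gave -0.078 to -0.018. For Amdhd2 the pairs gave -0.478 and -0.223 in C1 and C2, which are paired by number only. In D1 and D2 they gave -0.031 and -0.009, and the fitted difference of Amdhd2 in the later set alone was -0.02. For Ogt the difference was -0.13 with an interval of -0.46 to 0.20, and for Mgea5 -0.05 with an interval of -0.18 to 0.08. In all, 7 members were on the lower and 2 on the higher side, with a median of -0.074. Of all genes 51.5% were on the higher side, with a median of 0.005. In single runs 3, 3, 5 and 4 of 9 members were higher with S40A in C1, C2, D1 and D2. The members' medians there were -0.04, -0.146, 0.039 and -0.009. No member's groups were apart (2.75% of genes).

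The phosphorylation site was examined by S133A and S40A-S133A against WT, and by both together against WT and S40A. S133A against WT gave 0 called members in limma (0.0166% of genes) and 0 with an unadjusted p under 0.05 (1.39% of genes); the smallest p was that of Gfpt2, at -0.58 ± 0.501 (SE; unadjusted p = 0.272, adjusted p = 1), and at -0.336 without S133A replicate 1 and -0.868 without WT replicate 3. S40A-S133A against WT gave 0 called members (0.00828% of genes) and 0 at an unadjusted limma p under 0.05 (1.58% of genes). Its smallest p was that of Gnpnat1, at 0.20 ± 0.119 (SE; unadjusted p = 0.119, adjusted p = 1), and at 0.062 and 0.338 without replicate 1 or 2 of S40A-S133A. Loss of S133 over both S40 states gave 0 called members (0.0248% of genes) and 0 at an unadjusted limma p under 0.05 (3.09% of genes). Gnpnat1 had the smallest p there too, at 0.18 ± 0.088 (SE; unadjusted p = 0.0658, adjusted p = 1). No member's libraries were apart in these 3 comparisons (5.96%, 6.14% and 0.315% of genes). Gfpt2 lay on the lower side in all 3, by -0.58, -0.36 and -0.47, with intervals that reached from -1.67 to 0.73.

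At 4 h the groups hold 2 libraries each, and the fit has 3 residual degrees of freedom. It had no term for run, although the libraries of each group came from different runs, so differences between runs count in its spread. For Ogt, WT minus GFP was 0.143 in run A and -0.055 in run B, with a fitted SE of 0.523. WT against GFP gave 0 called members (0.0993% of genes, 0.0579% higher and 0.0414% lower) and 0 at an unadjusted limma p under 0.05 (0.348% of genes). Pgm3 read 3.55 and 3.97 with GFP, 4.23 and 4.34 with WT and 4.14 and 4.56 with S40A, so both CREB forms lay above GFP. Its difference for WT was 0.15 ± 0.145 (SE; unadjusted p = 0.347, adjusted p = 1), the smallest p of the 9 members. S40A against GFP gave 0 called members (0.0911% of genes, 0.0579% higher and 0.0331% lower) and 0 at an unadjusted limma p under 0.05 (0.488% of genes), with Pgm3 at 0.17 ± 0.145 (SE; unadjusted p = 0.307, adjusted p = 1). S40A against WT gave 0 called members (0.0911% of genes, 0.0497% higher and 0.0414% lower) and 0 at an unadjusted limma p under 0.05 (0.315% of genes). Its smallest p was that of Nagk, at -0.07 ± 0.134 (SE; unadjusted p = 0.637, adjusted p = 1). Groups were apart for Pgm3, above GFP, with WT (9.24% of genes). With S40A they were apart for Pgm3, above GFP, and for Nagk, below GFP (9.56%). Between S40A and WT they were apart for no member (8.99%).

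Whether the effect of a CREB form differed between 4 h and 8 h was tested in a joint fit. That fit had no term for run, so differences between runs A and B count in its spread. It called 0 members for WT (0.0166% of genes) and 0 for S40A (0.00828% of genes), with 0 members at an unadjusted limma p under 0.05 in either (0.563% and 1.21% of genes). The smallest p was that of Gfpt1 in both, at 0.26 ± 0.175 (SE; unadjusted p = 0.152) for WT and 0.27 ± 0.175 (unadjusted p = 0.142) for S40A, with limma adjusted p = 1 in both. Leaving out 1 library moved these to between 0.142 (without WT at 4 h, replicate 1) and 0.387 (replicate 2), and to between 0.094 (without S40A at 4 h, replicate 1) and 0.449 (replicate 2); without replicate 2 of GFP at 8 h they were 0.166 and 0.173.

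Several members differed between the batches. Between runs B and A at 4 h, with virus as a term, limma called 4 of 9 members, against 40.8% of all genes, so the share of members was near that of the genes. Ogt was higher in run B by 0.87 ± 0.068 (SE; adjusted p = 0.00729), Gfpt2 by 0.86 ± 0.130 (adjusted p = 0.0196) and Mgea5 by 0.26 ± 0.050 (adjusted p = 0.0296), while Gnpnat1 fell by 0.76 ± 0.063 (adjusted p = 0.00806). These calls rest on 3 libraries a run. The deposited values of the runs also differed in kind. FPKM summed to 422524 to 444454 in the run A libraries and 314062 to 322006 in run B. In run A some deposited intervals were off centre, as for Mgea5 with GFP (62.5 in 58.7 to 63.0). Creb1 with WT in run A (257.7) lay outside its own interval of 258.6 to 264.9. The part of this in the differences between runs was not tested. Without further scaling, the median gene differed by -0.246 between these runs. Mgea5 then differed by -0.01 (limma adjusted p = 0.866), Ogt by 0.60, Gfpt2 by 0.61 and Gnpnat1 by -0.92. Leaving out either WT or either S40A library left 0 members called, with Ogt at 0.897 to 0.914, and only 3.95% to 5.47% of genes. All 3 viruses had the same sign for each called member. Amdhd2, at 0.33 ± 0.091, missed the threshold (adjusted p = 0.0609). Groups of 3 were fully apart for 7 members, Ogt, Mgea5, Gfpt1, Gfpt2, Amdhd2, Gnpnat1 and Uap1, against 63.8% of genes.

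Between runs D2 and D1 at 8 h, with virus as a term, limma called 1 of 9 members, Gfpt2, against 30.3% of all genes. It was higher in D2 for 5 of 5 viruses, at 0.98 ± 0.147 (SE; adjusted p = 0.0102), with 9.71 to 19.1 scaled FPKM in D2 and 5.54 to 9.498 in D1, which did not overlap (23% of genes). Pgm3 was at -0.22 ± 0.064 (adjusted p = 0.0519) and Nagk at -0.16 ± 0.063 (adjusted p = 0.108), and neither was called. Without further scaling the median gene differed by -0.129, 7 members were called (45.5% of genes) and Gfpt2 differed by 0.87 (limma adjusted p = 0.00662). Without either GFP library of these runs, 3 members were called (31.8% of genes). Without any 1 of the other libraries 1 member was called, with 13.1% to 15.7% of genes. Runs C1 and C2 showed no such regularity for Gfpt2, which was higher in C2 for WT and GFP and lower for S40A.

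**Figure D3:**
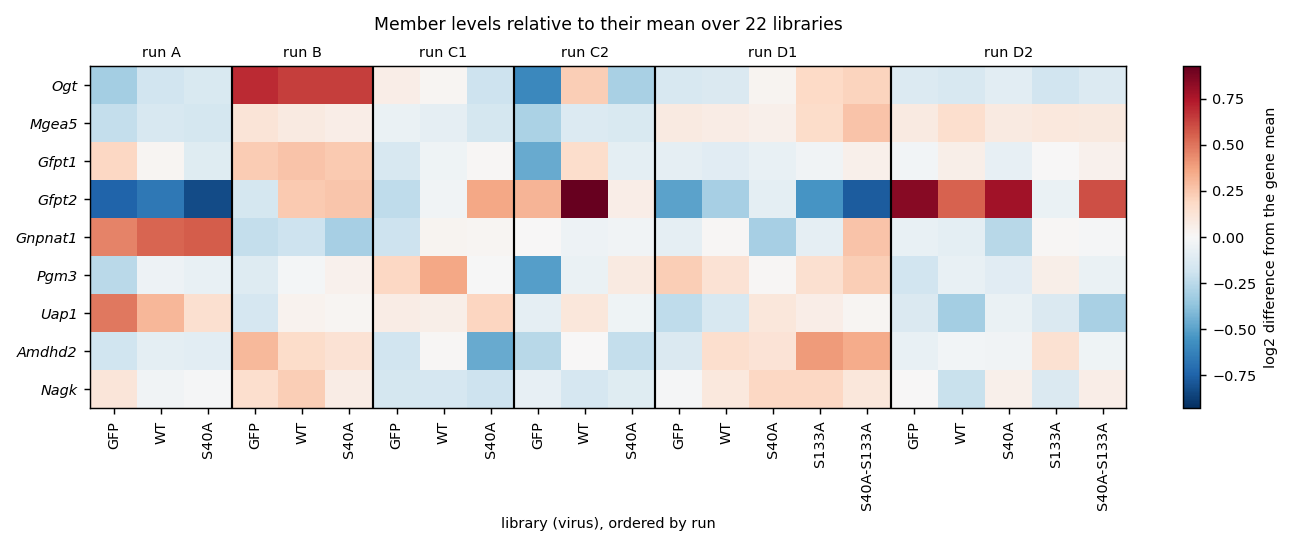
Each cell is log2(scaled FPKM + 1) of a member (rows) in a library (columns, named by virus and ordered by run) minus that gene's mean over the 22 libraries, red above and blue below. Run B is high for Ogt in all 3 libraries, run A is high for Gnpnat1, and Gfpt2 is low in run A and mostly high in D2.

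Other genes moved with these batches too. The summed vascular markers (3 genes, of which 1 passed the minimum and Cldn5 was listed at 0 in 2 libraries) stood at 0.415 to 1.85 in D1 and 2.84 to 5.31 in D2, and the 5 neuronal markers at 753 to 912 and 631 to 712. Creb1 itself was at 1.29 ± 0.371 in D2 against D1 (SE; limma adjusted p = 0.051), a fit that pools GFP with the CREB viruses. It was higher in D2 for 4 of 5 viruses, with a median of 1.665 over the 5. With GFP, which supplies no CREB, Creb1 was lower in D2, at 11.2 against 14.9 scaled FPKM. The virus-borne level of Creb1, 567 to 755 scaled FPKM in D1 for the CREB viruses, was 1832 to 2306 in D2. Between runs A and B the dividing-cell markers Mki67 and Top2a summed to 27.1 to 59.5 and 16.3 to 18.0, the neuronal markers to 637 to 761 and 767 to 844, and the 6 excitatory neuron markers to 157.5 to 178.0 and 185 to 209. The part of these in the members' differences was not tested.

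Ogt and Mgea5 do opposite jobs, so their ratio within a library needs no scaling between libraries. It was 0.476 to 0.518 in run A and 0.760 to 0.771 in run B, 0.498 to 0.557 in C1, 0.409 to 0.655 in C2, 0.433 to 0.517 in D1 and 0.411 to 0.450 in D2. The 3 run B libraries were above the other 19, whatever the virus. Gfpt1 to Gfpt2 ran from 1.33 to 5.23, with 4.35 to 5.23 in run A and 2.495 to 3.42 in run B. It was 2.60 to 4.84 in D1 and 1.33 to 2.69 in D2, so the 2 forms of the first-step enzyme came nearer to each other in D2. The ratios of GFP, WT and S40A at 8 h were compared by test, and those of S133A and S40A-S133A were not. In 6 exact two-sided permutation tests of 4 against 4 libraries the raw p lay between 0.4286 and 1, and every adjusted p was 1; the smallest p the design allows is 0.02857. Labels were exchanged across runs, so differences between runs count in the spread of these tests. Sign-flip permutation of pairs of equal replicate number gave p of 0.5 or more. Ogt to Mgea5 differed by 0.151 on the log2 scale between WT and GFP, by 0.063 between S40A and GFP, and by -0.087 between S40A and WT.

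**Figure D4:**
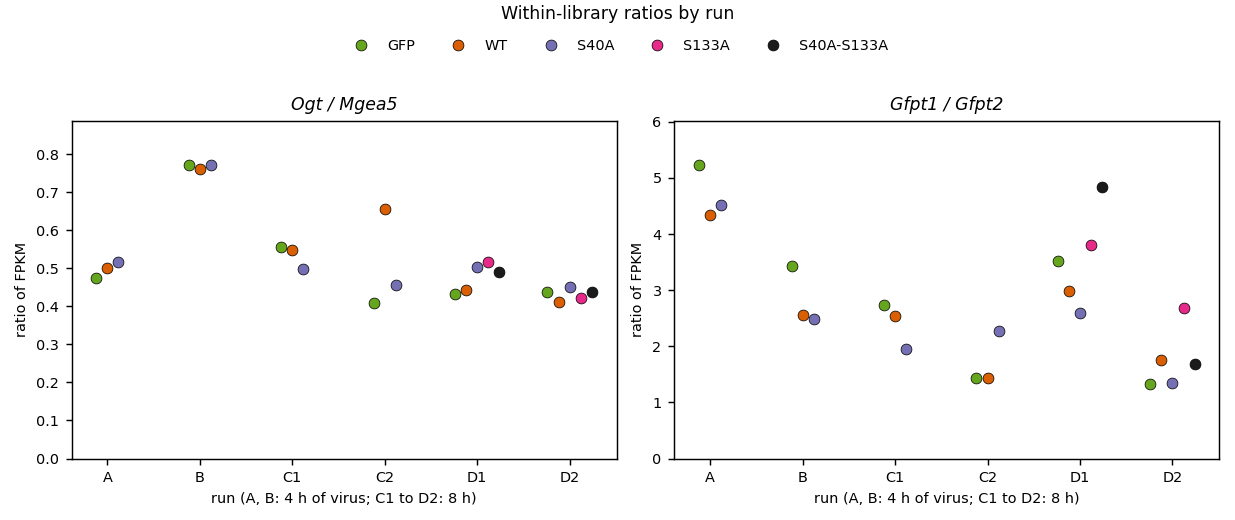
Ratio of Ogt to Mgea5 and of Gfpt1 to Gfpt2 in each library, by run, with colours for the virus. The run B libraries lie at 0.760 to 0.771 for the first ratio, above every other library.

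How the members varied with each other was described over the 22 libraries after subtracting run means, with r as a description and no p, since the libraries share runs, controls and scaling. Over 36 pairs the run-centred r ran from -0.383 to 0.739, with a median of 0.202. Ogt and Mgea5 had the highest, 0.739 (0.619 without replicate 2 of GFP at 8 h). Ogt also varied with Amdhd2 (0.675, and 0.726 without that library), Mgea5 with Amdhd2 (0.633 and 0.634), and Ogt with Gfpt1 (0.621, but 0.269 without that library). Among the 5 genes whose run-centred levels lay closest to Ogt's, of 8326, were Sf3b1 (0.956), Luc7l3 (0.952), Hnrnph3 (0.952) and Rfx7 (0.934), and the 5 closest to Mgea5's were Chmp5 (0.898), Pcm1 (0.898), Trim24 (0.893), Pbrm1 (0.888) and Picalm (0.886). Without replicate 2 of GFP those for Ogt were 0.929, 0.918, 0.917 and 0.927, and those for Mgea5 0.881, 0.875, 0.868, 0.859 and 0.868.

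Genes around the pathway were read in 4 lists. In any CREB against GFP at 8 h limma called 0 of 4 measured genes of the hexosamine side routes (6 listed), 0 of 14 genes that use UDP-GlcNAc, 0 of 8 Ogt partners and 0 of 9 genes of glucose and glutamine supply (10 listed). None had an unadjusted p under 0.05. The smallest p in each list was that of Gnpda2, which deaminates glucosamine 6-phosphate, at 0.21 ± 0.107 (SE; unadjusted p = 0.0772), Eogt, an O-GlcNAc transferase of secreted proteins, at -0.18 ± 0.146 (unadjusted p = 0.242), Bap1, a deubiquitinase found in a complex with Ogt and Hcfc1, at 0.09 ± 0.078 (unadjusted p = 0.291), and Slc38a1, a glutamine carrier, at 0.15 ± 0.088 (unadjusted p = 0.12). Eogt differed in sign between forms against GFP, at 0.04 for WT, 0.12 for S40A, -0.42 for S133A and -0.46 for S40A-S133A, and loss of S133 gave -0.52 ± 0.163 (SE; unadjusted p = 0.00823, limma adjusted p = 1), values chosen after they were seen. The lists' medians were 0.055, 0.047, 0.035 and 0.021 against 0.006 over all genes.

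In the lists around the pathway, calls between runs are read against 30.3% of all genes in D2 against D1 (13.3% higher, 17% lower). For B against A the share was 40.8% (20% higher, 20.8% lower), but 3.95% to 5.47% without either WT or either S40A library. Directions depend on the scaling: without it 18.3% of the calls were higher in D2 and 18.9% in B, against 43.9% and 49% with it. In D2 against D1, 4 of the 9 supply genes were higher and 0 lower, among them the glucose carrier Slc2a3 at 1.08 ± 0.140 (SE; limma adjusted p = 0.00773), the glutamine carrier Slc38a2 at 0.43 and Gpi1 at 0.39. In B against A again 4 were higher and 0 lower, among them Slc2a3 at 1.21 ± 0.147 (SE; adjusted p = 0.0139), Slc38a1 at 0.71 and Slc38a2 at 0.33. These genes were chosen for naming after their values were seen. The users of UDP-GlcNAc gave 0 higher and 5 lower of 14 in D2 (among them Gne, Slc35a3, Mgat4b and Mgat5, at -0.27 to -0.21) and 4 higher and 3 lower in B (Mgat3 the highest at 0.74 and Slc35a3 the lowest at -0.44). Of the 8 Ogt partners, Tet3 was higher in both, at 0.28 and 0.88, with 1 higher and 0 lower in D2 and 3 higher and 1 lower in B. None of the 4 measured side-route genes was called in either.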

How the data were processed

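RNA was measured in 22 libraries. The authors deposited FPKM values per gene with Cufflinks intervals; the submitters' processing notes name CASAVA 1.7, Bowtie 0.12.2 and Cufflinks, as well as builds mm8 and mm10 without a role. Positions fall on mm10, with starts counted from 1. For multiply mapped reads and strand, the handling is not stated in the sources used here.

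From these values, median-of-ratios scaling (factors 0.863 to 1.115), a pseudocount of 1 FPKM and log2 were computed. Entries averaging 1 FPKM or more were kept and 21 with a failed estimate removed, leaving 12080. limma 3.58.1 (R 4.3.3, trended variance, two-sided tests, Benjamini-Hochberg adjustment) fitted the 16 libraries at 8 h with a term for set (10 residual degrees of freedom), the 6 at 4 h (3), and all 22 jointly (13). None of these had a term for run. Run comparisons had virus as a term. The fit was tested on simulated data with independent noise and added shifts of 1 on the log2 scale. These shifts were larger than any member's difference between viruses, so the simulation does not show whether differences of that size would be found. Ratios used exact permutation tests. Python 3.11.15, numpy 2.4.6, pandas 2.3.3, scipy 1.17.1 and matplotlib 3.10.9 made the remaining values and figures.

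Differences, SE and p are printed for members with an unadjusted p under 0.05 in a comparison, or else for the member with the smallest p; Gnpda2, Eogt, Bap1 and Slc38a1 had the smallest p of their lists. Members whose groups did not overlap, and members named for other reasons, were chosen after their values were seen. Alternatives were scaling, the trend, filter, pseudocount, leaving out each library, run as a term, no term for set and the later set alone. The members and lists were chosen with earlier results of these data known. Some genes of these lists are not reported here.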

Additional observations from a re-analysis of the deposited data

Results flagged for a closer look

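In 33 groups of 4 libraries, covering the members and both ratios, values were searched for a highest or lowest library standing far from its group. Replicate 3 of WT at 8 h stood out for Amdhd2, at 6.44 scaled FPKM where its 3 fellow WT libraries held 5.57 to 5.71, and its gap was 0.837 of the group's range. The same library stood out for Nagk, at 22.4 scaled FPKM against 18.0 to 18.7, with a gap of 0.834 of the range. Both lie just past Dixon's critical value for 4 samples, and chance alone is expected to give about 5% of such groups, so 2 of 33 is near that number. That share holds for groups of like libraries, whereas these groups mix runs. Without that library, WT against GFP at 8 h still gave 0 called members in limma.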

How the results depend on the processing

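With run as a term (the replicate block), 0 members were called in each of the 14 comparisons between viruses, as without it. The smallest adjusted p of a named member with the block was 0.502, for Gfpt1 in any CREB against GFP. Same-run correlations of deviations were positive in D1 and D2 (0.037 to 0.397) and at 4 h (0.544 to 0.562), where only 2 numbers exist. In C1 and C2 they were -0.042 to 0.177, so replicate numbers were not shown to pair those libraries.

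Without further scaling, Mgea5 in B against A was -0.013 and 7 members were called in D2 against D1 (45.5% of genes); without the trend 2 were (30.5%). Leaving out each library gave 1 to 3 called in D2 against D1 (13.1% to 31.8% of genes; 3 without GFP replicate 3 or 4) and 0 to 5 in B against A (3.95% to 44% of genes; 0 without either WT or S40A library). Without replicate 2 of WT, Nagk in S40A against WT at 4 h was 0.061 (range over left-out libraries -0.197 to 0.061). S40A against GFP had 5 members on the higher side without GFP replicate 2, an alternative chosen after seeing the data. Leaving out a library reversed 4 of the 6 ratio differences: Ogt to Mgea5 in S40A against WT ran from -0.188 to 0.037, and Gfpt1 to Gfpt2 from -0.201 to 0.267 in WT against GFP, from -0.274 to 0.194 in S40A against GFP and from -0.254 to 0.114 in S40A against WT. The cause was not tested. A filter at 5 FPKM left 7 members tested. In the later set alone, 0 members were called between viruses at 8 h. Gfpt1 was then at 0.037 in any CREB against GFP and at 0.028 in WT against GFP. Uap1 in S40A against GFP was at 0.208, and Amdhd2 in S133A against GFP at 0.371.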
